A study of Mus musculus with 4 samples.

Results

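The Ube2 genes of the mouse encode ubiquitin-conjugating (E2) enzymes, and their transcripts were followed in oocytes at the growing and the fully grown stage, with and without deletion of Dcaf13. Members were taken by symbol (Ube2 followed by a lower-case letter, pseudogenes left out), which gave 35 of the 23235 genes measured. The symbol rule also takes in Ube2cbp (now Ube3d), which is a ubiquitin ligase, and it misses E2 enzymes with other symbols, such as Cdc34. All mice had a C57B6 background and carried floxed Dcaf13 alleles (Dcaf13fl/fl). The deletion mice (Dcaf13fl/fl;Gdf9-Cre) also carried the Gdf9-Cre transgene, which is active in oocytes and not in the surrounding follicle cells, and the control mice did not. The 4 groups were fully grown deletion, fully grown control, growing deletion and growing control oocytes, with 1 library of 10 oocytes each. Fully grown oocytes came from 23-day-old mice primed 48 h earlier with 5 IU of the gonadotropin PMSG, which stimulates follicles, and growing oocytes from mice of 14 days without it.

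E2 enzymes stand in the middle of the ubiquitin cascade. An activating enzyme (E1) charges the E2 with ubiquitin on its active-site cysteine, and the E2 passes it to a substrate with the help of a ligase (E3). The choice of E2 largely sets the kind of ubiquitin chain, and some E2 enzymes carry NEDD8 or ISG15 in place of ubiquitin. In oocytes the cascade is known for the degradation of cyclin B and securin by the anaphase-promoting complex during meiosis. Dcaf13 links to it as well, since its protein is a nucleolar factor of ribosome assembly that also serves as a substrate receptor of the cullin ligase CRL4.

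Values are in FPKM, in which the fragments of a gene are divided by its length and by all mapped fragments. Since a group is 1 library, differences carry no error and none was tested, and the depth is unknown. Summed FPKM lay between 649397 and 678437 per library. In the deposited table the values were out of step with the symbols, and all were re-paired by sorting the symbols in byte order, an inference from the values that was not checked with the submitters. This moved all 35 Ube2 genes by 2 rows. After it, the nearby ubiquitin gene Ubb averaged 2447 FPKM and the oocyte-rich hydrolase gene Uchl1 averaged 4783 FPKM, against 0.023 and 5.02 FPKM as deposited. The 17 oocyte markers found in the table had a median of 1552 FPKM, and all 17 were at 1 FPKM or more. Granulosa markers reached 1 FPKM for 5 of 10 genes and summed to between 8.89 and 17.2 FPKM per library. Theca and stroma markers reached it for 0 of 9 genes and summed to between 1.19 and 1.53 FPKM, with Lhcgr listed at 0. Blood and endothelium markers reached it for 2 of 8 genes and summed to between 13.7 and 20.2 FPKM, with Pecam1 at up to 18.7 FPKM, while Hba-a1, Hbb-b1 and Cdh5 were listed at 0. Their part in the results was not tested.

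Dcaf13 itself was lower in each deletion library than in its control, but not absent. It stood at 64.0 FPKM in fully grown deletion and 160.2 FPKM in fully grown control oocytes, and at 38.9 FPKM in growing deletion and 96.1 FPKM in growing control oocytes. These are 39.95% and 40.5% of the control level at the fully grown and the growing stage. Loss of the floxed exons cannot be read from these whole-gene values.

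A few E2 genes made up most of the Ube2 transcripts in oocytes. The 4 highest were Ube2t, Ube2s, Ube2d3 and Ube2c in every library, and they held between 61.2% and 64.7% of the summed FPKM of the 35 genes. That sum lay between 2676 and 2865 FPKM, which is 0.394% to 0.441% of the FPKM of all genes. Of the 35 genes, 34 reached 1 FPKM in at least 1 library and 32 reached 5 FPKM. The exception at the low end was Ube2ql1, which was listed at 0 in growing control oocytes and reached 0.546 FPKM at most. At or above 1 FPKM, 21 to 23 members per library ranked in the upper 50% of the genes at that level, and 5 or 6 ranked in the top 10%.

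Ube2t, the E2 that attaches single ubiquitins to the Fanconi anaemia protein FANCD2 in DNA crosslink repair (mm9 chromosome 1, plus strand, 136859154 to 136870714), was the most abundant member. It stood at 774.1 FPKM in fully grown deletion and 767.2 FPKM in fully grown control oocytes, and at 646.8 FPKM in growing deletion and 661.1 FPKM in growing control oocytes. Both fully grown libraries were above both growing ones, and the deletion library was within 0.032 of its control on the log2(FPKM + 1) scale at each stage. Ube2t ranked above 98.4% to 98.6% of the genes at 1 FPKM or more. Both E2 enzymes of the anaphase-promoting complex were among the 4 highest. Ube2s, which lengthens the chains, stood at 388.8 FPKM in fully grown deletion and 321.3 FPKM in fully grown control oocytes, and at 327.9 FPKM in growing deletion and 423.6 FPKM in growing control oocytes. Ube2c, which starts them, stood at 254.6 FPKM in fully grown deletion and 280.2 FPKM in fully grown control oocytes, and at 405.2 FPKM in growing deletion and 371.1 FPKM in growing control oocytes. For Ube2c both growing libraries were above both fully grown ones, whereas for Ube2s the stages overlapped. Ube2w, which attaches ubiquitin to the N-terminus of proteins, was also among the 10 highest. It stood at 118.2 FPKM in fully grown deletion and 144.3 FPKM in fully grown control oocytes, and at 105.9 FPKM in growing deletion and 111.3 FPKM in growing control oocytes. The fully grown control library stood apart as the highest.

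**Figure D1:**
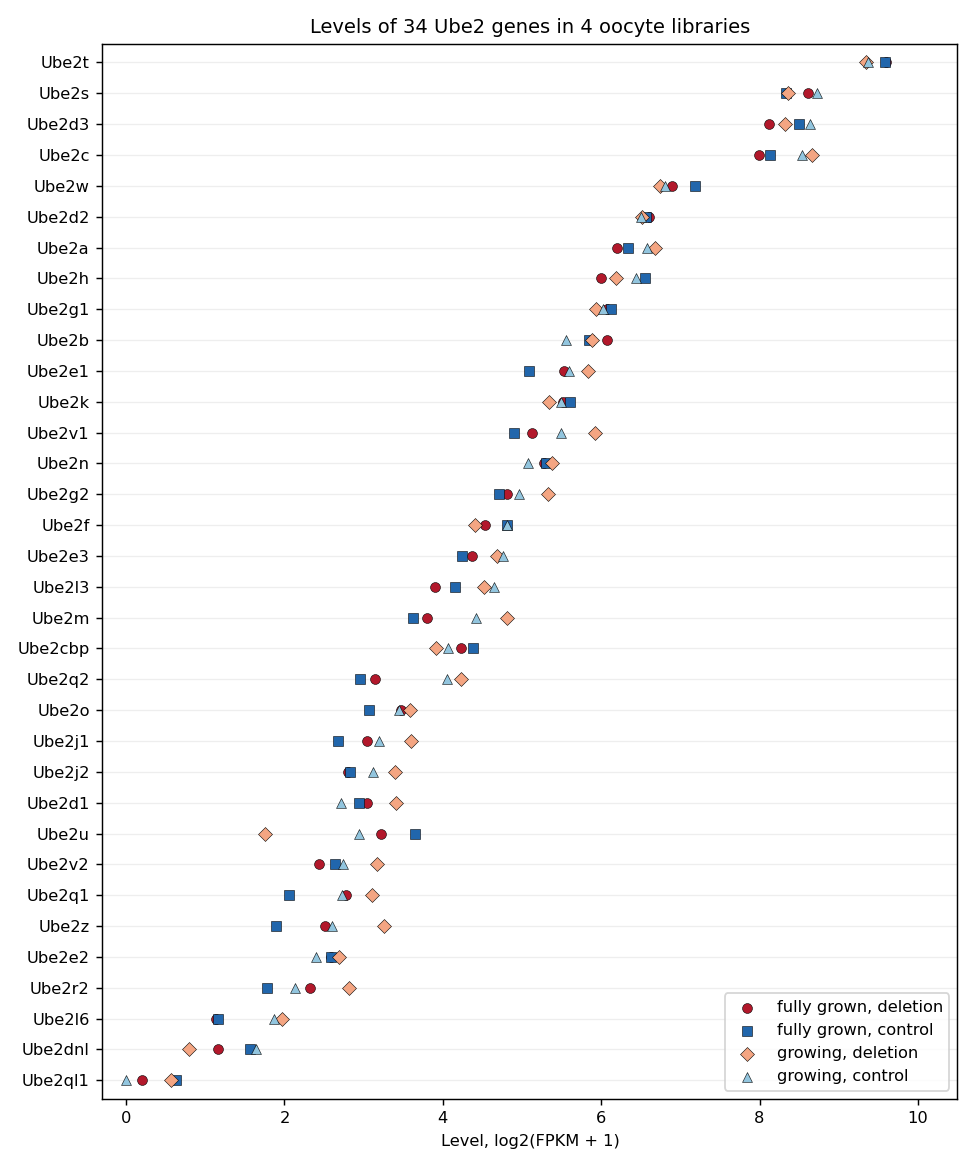
Level of 34 of the 35 Ube2 genes as log2(FPKM + 1) in the 4 libraries, ordered by the mean FPKM from top to bottom. Each symbol is 1 library; Ube2t stands highest at 646.8 to 774.1 FPKM, and the 4 symbols of Ube2u lie farthest apart among genes with a mean of 5 FPKM or more.

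The promoters of the most abundant members and of a pair that differed between libraries were read as sequence. Each line holds 300 bases, from 250 before to 50 after the annotated start, as given by RefSeq for GRCm38.p6, in the direction of transcription. Capitals mark CCAAT and its reverse complement ATTGG, the box bound by the factor NF-Y. Ube2t (chr1:134962315-134962614, plus strand), Ube2s (chr7:4812291-4812590, minus strand) and Ube2c (chr2:164769679-164769978, plus strand) are among the 4 highest, while Ube2u (chr4:100478617-100478916, plus strand) and Ube2q2 (chr9:55149119-55149418, plus strand) each differed by at least 1 in log2(FPKM + 1) in 2 of the comparisons given further on.
Ube2t: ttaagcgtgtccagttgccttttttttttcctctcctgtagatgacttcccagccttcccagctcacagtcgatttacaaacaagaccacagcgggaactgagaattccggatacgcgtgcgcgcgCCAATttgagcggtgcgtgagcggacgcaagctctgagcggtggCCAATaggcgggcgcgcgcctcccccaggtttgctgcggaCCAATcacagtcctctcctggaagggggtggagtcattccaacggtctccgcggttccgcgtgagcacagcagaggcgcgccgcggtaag
Ube2s: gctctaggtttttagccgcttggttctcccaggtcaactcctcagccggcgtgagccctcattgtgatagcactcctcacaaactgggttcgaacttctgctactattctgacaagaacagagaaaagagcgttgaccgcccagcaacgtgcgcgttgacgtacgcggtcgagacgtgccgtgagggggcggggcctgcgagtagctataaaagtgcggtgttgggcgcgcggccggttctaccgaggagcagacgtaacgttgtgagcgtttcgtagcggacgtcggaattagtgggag
Ube2c: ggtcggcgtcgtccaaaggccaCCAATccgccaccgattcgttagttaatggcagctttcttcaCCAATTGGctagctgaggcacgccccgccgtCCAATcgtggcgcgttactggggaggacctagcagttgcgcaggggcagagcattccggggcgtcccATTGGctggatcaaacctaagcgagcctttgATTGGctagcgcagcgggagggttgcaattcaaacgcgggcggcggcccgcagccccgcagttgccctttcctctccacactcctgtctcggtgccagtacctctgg
Ube2u: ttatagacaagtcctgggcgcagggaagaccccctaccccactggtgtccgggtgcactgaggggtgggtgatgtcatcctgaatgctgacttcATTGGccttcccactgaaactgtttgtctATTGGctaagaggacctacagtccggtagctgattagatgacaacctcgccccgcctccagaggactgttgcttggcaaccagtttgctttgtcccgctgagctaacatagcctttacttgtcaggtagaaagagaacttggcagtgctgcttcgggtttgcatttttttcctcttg
Ube2q2: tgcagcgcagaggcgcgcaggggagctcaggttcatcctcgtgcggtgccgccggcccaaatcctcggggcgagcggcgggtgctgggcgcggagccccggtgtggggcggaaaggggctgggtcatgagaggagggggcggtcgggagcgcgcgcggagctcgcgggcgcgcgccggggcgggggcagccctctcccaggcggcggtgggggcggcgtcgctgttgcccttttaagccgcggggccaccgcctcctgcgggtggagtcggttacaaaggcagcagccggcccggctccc
The Ube2c window held 6 matches, of which 1 pair overlaps as CCAATTGG, the Ube2t window held 3 and the Ube2u window 2. The windows of Ube2s and Ube2q2 held none. CCAAT on either strand was in 7 of the 27 member promoters found by symbol (25.9%) and in 38.0% of all 27025 promoters of the same length. The cell cycle element TTTGAA or TTCGAA, on either strand, was in 4 of 27 (14.8%), Ube2s and Ube2c among them, and in 19.5% of all promoters. The E-box CANNTG, bound by helix-loop-helix factors such as FIGLA of oocytes, was in 14 of 27 (51.9%) and in 72.1% of all. TAATTG, the element of the oocyte factor NOBOX, was in 0 of 27 and in 8.14% of all. A match is no evidence of binding. The median GC content was 66.7% over the member windows and 52.7% over all promoters. The part of base composition in these shares was not tested. Most members have a CpG-rich start, set here against all promoters and not against those of expressed genes alone. The median was 28 CpG per window over the 27 members and 7 over all promoters, and 26 of the 27 (96.3%) held 10 or more CpG, against 44.0% of all. The exception was Ube2u, with 7 CpG. The Ube2 genes are spread over 16 chromosomes, with at most 4 on 1 chromosome.

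Levels differed widely between enzymes of related function. Ube2d3, Ube2d2 and Ube2d1 encode near-identical E2 enzymes that start ubiquitin transfer with many RING ligases. Ube2d3 stood at 276.9 FPKM in fully grown deletion and 359.8 FPKM in fully grown control oocytes, and at 319.6 FPKM in growing deletion and 397.5 FPKM in growing control oocytes. Ube2d2 was the steadiest member, at 96.3 FPKM in fully grown deletion, 93.6 FPKM in fully grown control, 90.6 FPKM in growing deletion and 89.4 FPKM in growing control oocytes, a highest value 1.08 times the lowest. Ube2d1 was far lower, at 7.24 FPKM in fully grown deletion, 6.67 FPKM in fully grown control, 9.65 FPKM in growing deletion and 5.54 FPKM in growing control oocytes. Ube2d3 thus stood 33.1 to 71.8 times above Ube2d1. How reads that match several genes were assigned is not given in the sources used here, and for such close copies the split between them is uncertain.

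The Rad6 homologues Ube2a and Ube2b, which ubiquitinate histone H2B and PCNA, were of similar level. Ube2a stood at 72.2 FPKM in fully grown deletion and 79.99 FPKM in fully grown control oocytes, and at 101.9 FPKM in growing deletion and 94.6 FPKM in growing control oocytes. For Ube2b these were 66.4 FPKM in fully grown deletion, 56.5 FPKM in fully grown control, 58.3 FPKM in growing deletion and 45.9 FPKM in growing control oocytes. The ratio of Ube2a to Ube2b was 1.09 in fully grown deletion and 1.42 in fully grown control oocytes, and 1.75 in growing deletion and 2.06 in growing control oocytes. It was lower in both fully grown libraries than in both growing ones, and lower in the deletion library at each stage. The X-linked Ube2a and the autosomal Ube2b thus leaned opposite ways between the stages, by -0.49 and 0.19 in the deletion and -0.24 and 0.29 in controls on the log2(FPKM + 1) scale, none of which reaches 1.

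Ube2n makes non-degradative chains together with a catalytically inactive partner, Ube2v1 or Ube2v2. Ube2n stood at 37.7 FPKM in fully grown deletion and 38.5 FPKM in fully grown control oocytes, and at 40.8 FPKM in growing deletion and 32.7 FPKM in growing control oocytes. Ube2v1 stood at 34.1 FPKM in fully grown deletion and 28.7 FPKM in fully grown control oocytes, and at 59.5 FPKM in growing deletion and 44.1 FPKM in growing control oocytes. Both growing libraries were above both fully grown ones for Ube2v1, and the ratio of Ube2n to Ube2v1 was above 1 in fully grown (1.11 in deletion, 1.34 in control) and below 1 in growing oocytes (0.686 in deletion, 0.740 in control). Ube2v2 was the minor partner, 5.49 to 7.81 times below Ube2v1.

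The enzymes that serve cullin ligases are of interest because Dcaf13 belongs to one. Ube2m and Ube2f attach NEDD8, which activates cullins. Ube2m stood at 12.9 FPKM in fully grown deletion and 11.4 FPKM in fully grown control oocytes, and at 26.96 FPKM in growing deletion and 20.4 FPKM in growing control oocytes. Ube2f stood at 22.1 FPKM in fully grown deletion and 26.99 FPKM in fully grown control oocytes, and at 20.1 FPKM in growing deletion and 27.1 FPKM in growing control oocytes. Ube2m separated by stage and Ube2f by genotype, with both deletion libraries below both controls. Of the E2 enzymes that build chains on cullin ligase substrates, Ube2g1 stood at 66.6 FPKM in fully grown deletion and 68.8 FPKM in fully grown control oocytes, and at 60.3 FPKM in growing deletion and 64.0 FPKM in growing control oocytes. Ube2r2 was 10.04 to 28.4 times lower, at 4.01 FPKM in fully grown deletion and 2.42 FPKM in fully grown control oocytes, and at 6.01 FPKM in growing deletion and 3.38 FPKM in growing control oocytes. Both deletion libraries were above both controls for Ube2r2. Cdc34, the paralog of Ube2r2 outside the symbol rule, averaged 92.4 FPKM.

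**Figure D2:**
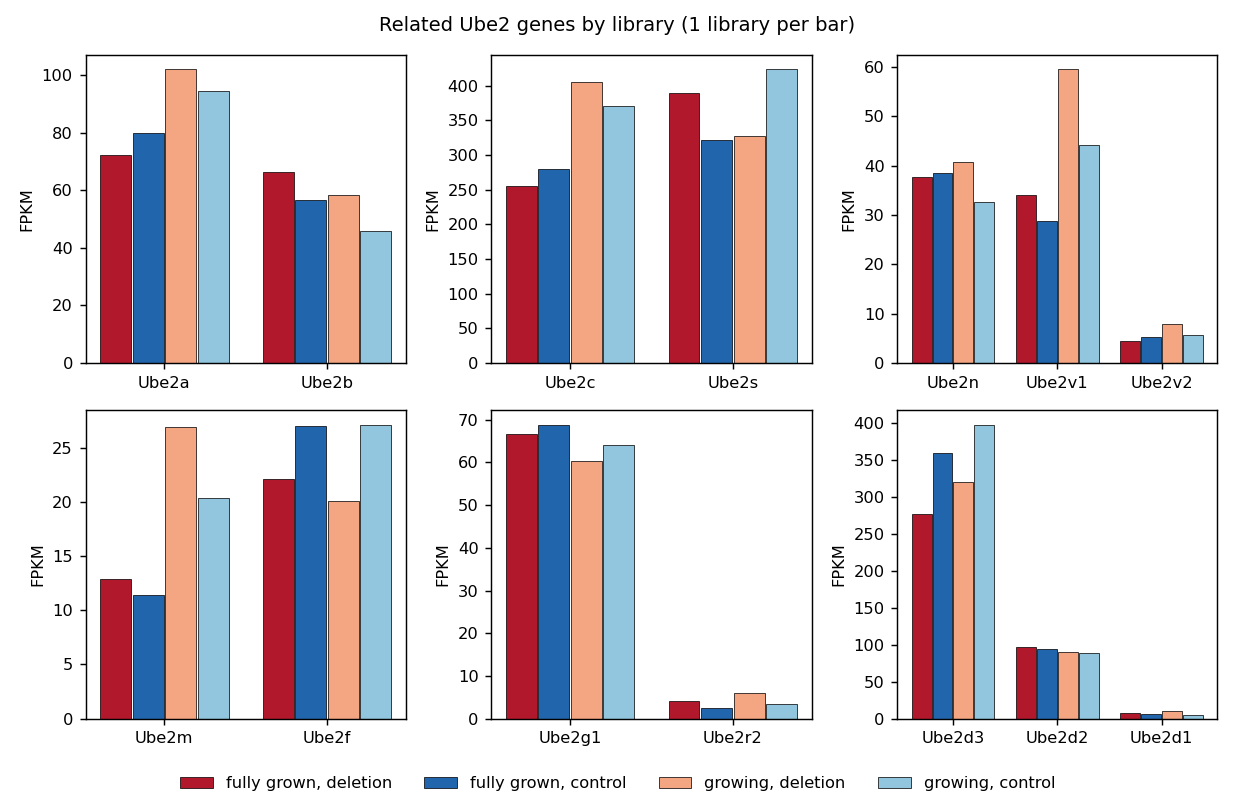
FPKM of related Ube2 genes in the 4 libraries, 1 library per bar, with linear axes from 0 that differ between panels. Ube2d3, Ube2g1 and Ube2n stand far above their relatives or partners Ube2d1, Ube2r2 and Ube2v2, while Ube2a and Ube2b are of similar level.

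In fully grown oocytes, deletion and control were compared for the state at the end of growth. A gene was called higher or lower where 1 of the libraries compared reached a minimum of 5 FPKM and the difference in log2(FPKM + 1) was at least 1. Among members at the minimum Ube2q1 came closest to that size, at 0.71. Of the 30 members at the minimum, 0 were higher and 0 lower, while of all 7413 such genes 1.08% were higher and 1.09% lower, so a count of 0 is near the background. The median difference was 0.0018 for the members and 0.04 for all genes, and that of the members turns sign with the setting, down to -0.06 with rescaling by the median ratio.

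Among members at the minimum, the largest positive difference was that of Ube2q1, an E2 with a long N-terminal extension, at 5.84 FPKM in fully grown deletion and 3.18 FPKM in fully grown control oocytes (0.71). Of the fully grown libraries, only the deletion reached the minimum for Ube2q1, so the filter let it in by its high value. In growing oocytes it stood at 7.60 FPKM in deletion and 5.64 FPKM in control oocytes. Next came Ube2e1, at 45.1 FPKM in fully grown deletion and 33.0 FPKM in fully grown control oocytes (0.44), and at 56.1 FPKM in growing deletion and 47.5 FPKM in growing control oocytes. The Ube2e1 gene overlaps Nkiras1, which lies on the opposite strand and averaged 28.0 FPKM, and reads of both cannot be told apart without strand. Ube2h, the E2 of the CTLH ligase, had the largest negative one, at 62.8 FPKM in fully grown deletion and 92.95 FPKM in fully grown control oocytes (-0.56), and stood at 72.2 FPKM in growing deletion and 86.0 FPKM in growing control oocytes. Ube2h was thus lower in each deletion library than in either control. In this comparison 90% of all genes at the minimum lay between -0.58 and 0.63, a range that held every member at the minimum except Ube2q1. At a size of 0.5 the count was 1 higher (Ube2q1) and 1 lower (Ube2h) of 30, against 9.19% and 6.97% of all genes.

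In growing oocytes the same comparison was made during growth. Ube2u (mm9 chromosome 4, plus strand, 100151472 to 100222750), a divergent member of the family, stood at 2.37 FPKM in growing deletion and 6.67 FPKM in growing control oocytes, a difference of -1.19. It was the 1 member lower by the size rule, and 0 were higher, of 32 at the minimum. Ube2u reached the minimum here only in the control library, so the rule could call it only lower. Of all 8010 genes at the minimum, 2.51% were lower and 2.62% higher, a share close to that of the members. In fully grown oocytes Ube2u stood at 8.31 FPKM in deletion and 11.6 FPKM in control oocytes, again lower in the deletion (-0.44). The growing deletion library held the lowest of the 4 values. The call was lost with the trend in GC content and length removed (-0.99) and with a minimum of 10 FPKM, which Ube2u does not reach in growing oocytes. At levels this low FPKM rests on few fragments, and RefSeq also lists an opposite-strand RNA gene, Ube2uos, inside Ube2u.

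Ube2d1 and Ube2r2 had the largest positive differences among members at the minimum in growing oocytes. From the values given above, Ube2d1 differed by 0.70 and Ube2r2 by 0.68. Ube2r2 reached the minimum only in the deletion library, so the filter let it in by its high value. Ube2z, which takes ubiquitin or FAT10 from the activating enzyme Uba6, was close behind at 8.56 FPKM in growing deletion and 5.06 FPKM in growing control oocytes (0.66). Ube2f had the largest negative difference after Ube2u (-0.41). In this comparison 90% of all genes lay between -0.70 and 0.78, and of the members at the minimum all but Ube2u lay within that range. At a size of 0.5, 3 members were higher (Ube2d1, Ube2r2 and Ube2z) and 1 lower, against 13.5% and 8.79% of all genes. The median was 0.15 for the members and 0.08 for all genes. With a minimum of 10 FPKM the order turned, at 0.06 for the members and 0.08 for all genes.

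The deletion comparisons of both stages share no library, so their directions may be set side by side. Of the 30 members at the minimum in both, 12 were above control at both stages, 9 below at both and 9 went opposite ways. The same direction was thus seen in 70.0% of the members and in 67.0% of all 7188 such genes. With the trend in GC content and length removed, these were 76.7% of the 30 members and 64.7% of all 7119 genes. The gap between members and all genes thus depends on the setting, and it was not tested. Above control at both stages by the widest margin were Ube2q1 (0.71 and 0.37 in fully grown and growing oocytes), Ube2j1 (0.36 and 0.40), an E2 anchored in the endoplasmic reticulum that serves the disposal of misfolded proteins, and Ube2v1 (0.24 and 0.42). Below control at both stages by the widest margin were, besides Ube2u, Ube2d3 (-0.38 and -0.31), Ube2f (-0.28 and -0.41) and Ube2h (-0.56 and -0.25). In fully grown oocytes Ube2q1 reached the minimum only in the deletion library, and in growing oocytes Ube2u only in the control library. The filter thus let each in by its high value there, which fixed its direction at that stage. The differences moved with the GC content of the transcripts, with Spearman's rho 0.41 in fully grown and 0.37 in growing oocytes over all genes, and 0.45 and 0.25 over the members. With the trend in GC content and length removed, Ube2d3 stood at -0.19 and -0.10 and Ube2f at -0.24 and -0.31. Ube2h then stood at -0.57 and -0.21, Ube2j1 at 0.47 and 0.56, and Ube2v1 at 0.10 and 0.29. Ube2v1 was then passed by Ube2e1 (0.60 and 0.40) and Ube2b (0.42 and 0.54). The part of GC content in these differences was not tested beyond this.

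**Figure D3:**
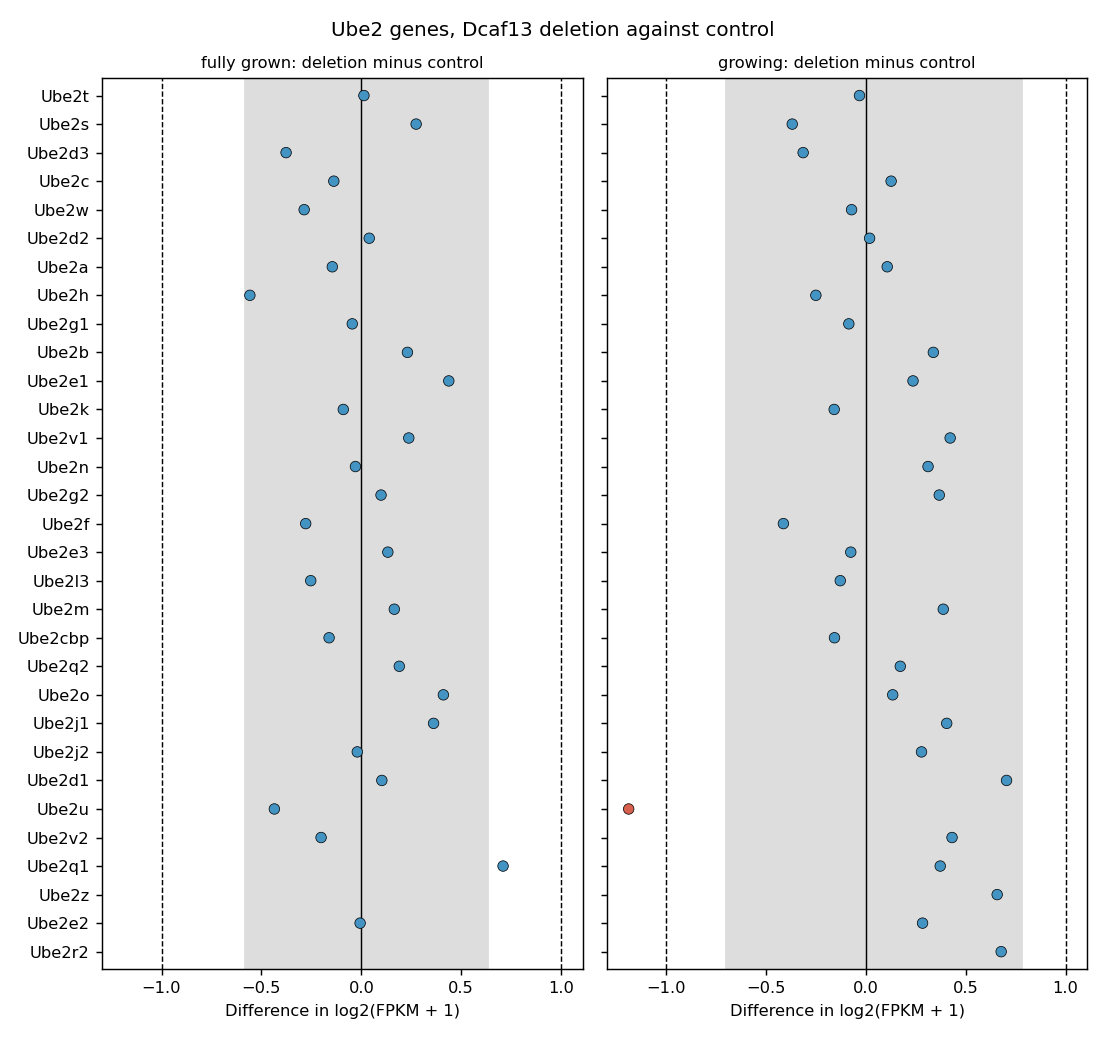
Difference in log2(FPKM + 1) between deletion and control, in fully grown oocytes (left) and growing oocytes (right), for Ube2 genes that reach 5 FPKM in 1 of the libraries compared; genes are ordered by mean level. Grey marks the range that holds 90% of all genes, dashed lines a difference of 1 either way; Ube2u in growing oocytes (-1.19) is the 1 point beyond them.

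The comparison of fully grown with growing oocytes describes growth. Stage, age and PMSG cannot be told apart in it, and since FPKM is a share of the mapped fragments, less of a transcript per oocyte cannot be told apart from more of all others. Each library was made from 10 oocytes, and differences in RNA per oocyte or in any other cells present cannot be told apart in such bulk libraries. Ube2q2 (mm9 chromosome 9, plus strand, 54997176 to 55055336), a relative of Ube2q1, was lower in fully grown oocytes of both genotypes. It stood at 7.86 FPKM in fully grown deletion and 17.8 FPKM in growing deletion oocytes (-1.08), and at 6.77 FPKM in fully grown control and 15.6 FPKM in growing control oocytes (-1.10). Both fully grown libraries were thus below both growing ones, by similar amounts. In controls, Ube2q2 was the 1 member lower by the size rule and 0 were higher, of 31 at the minimum, against 3.07% lower and 1.11% higher of all 7661 genes.

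In the deletion, 2 of 32 members were lower (Ube2q2 and Ube2m) and 1 was higher (Ube2u), against 8.75% lower and 2.7% higher of all 7957 genes. Ube2m (mm9 chromosome 7, minus strand, 13620469 to 13623624) differed by -1.01 between fully grown and growing deletion oocytes, and by -0.79 in controls. Corrected for the trend in GC content and length, the difference of Ube2m was -0.43 in the deletion and -0.31 in controls, and the GC content of its transcript, 63.4%, is the highest of the 35 genes. Ube2u was higher in fully grown than in growing deletion oocytes by 1.47, with a difference of 0.71 in controls. The growing deletion library takes part in both calls of Ube2u, as the lower library each time and under 5 FPKM.

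At a size of 0.5, 10 of 32 members were lower in the deletion (31.2%) and 8 of 31 in controls (25.8%), where 22.4% and 14.1% of all genes were. Those lower in both genotypes were Ube2j1, Ube2m, Ube2q2, Ube2v1 and Ube2z. Ube2z reached the minimum only in the growing library of each genotype, so the rule could call it only lower. The same held for Ube2q1 in controls and for Ube2v2 in the deletion, which are among those counted. Ube2u was the 1 member higher at that size in either genotype, against 10.9% of all genes in the deletion and 5.13% in controls. The median difference was -0.26 for the members and -0.07 for all genes in the deletion, and -0.14 and -0.06 in controls. With a minimum of 10 FPKM the medians were -0.15 for the members and -0.04 for all genes in the deletion, and -0.0066 and -0.02 in controls. Of the 5 enzymes of ubiquitin-like proteins, Ube2l6, the E2 of ISG15, was below the minimum throughout, at 1.20 and 1.23 FPKM in fully grown deletion and control oocytes and 2.91 and 2.65 FPKM in growing deletion and control oocytes. All 3 E2 enzymes of degradation at the endoplasmic reticulum (Ube2g2, Ube2j1 and Ube2j2) lay below 0 in both genotypes, with medians of -0.56 in the deletion and -0.29 in controls, where 44.1% and 43.95% of all genes at the minimum lay above 0. With the trend in GC content and length removed, Ube2g2 stood at -0.30 in the deletion and -0.07 in controls.

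**Figure D4:**
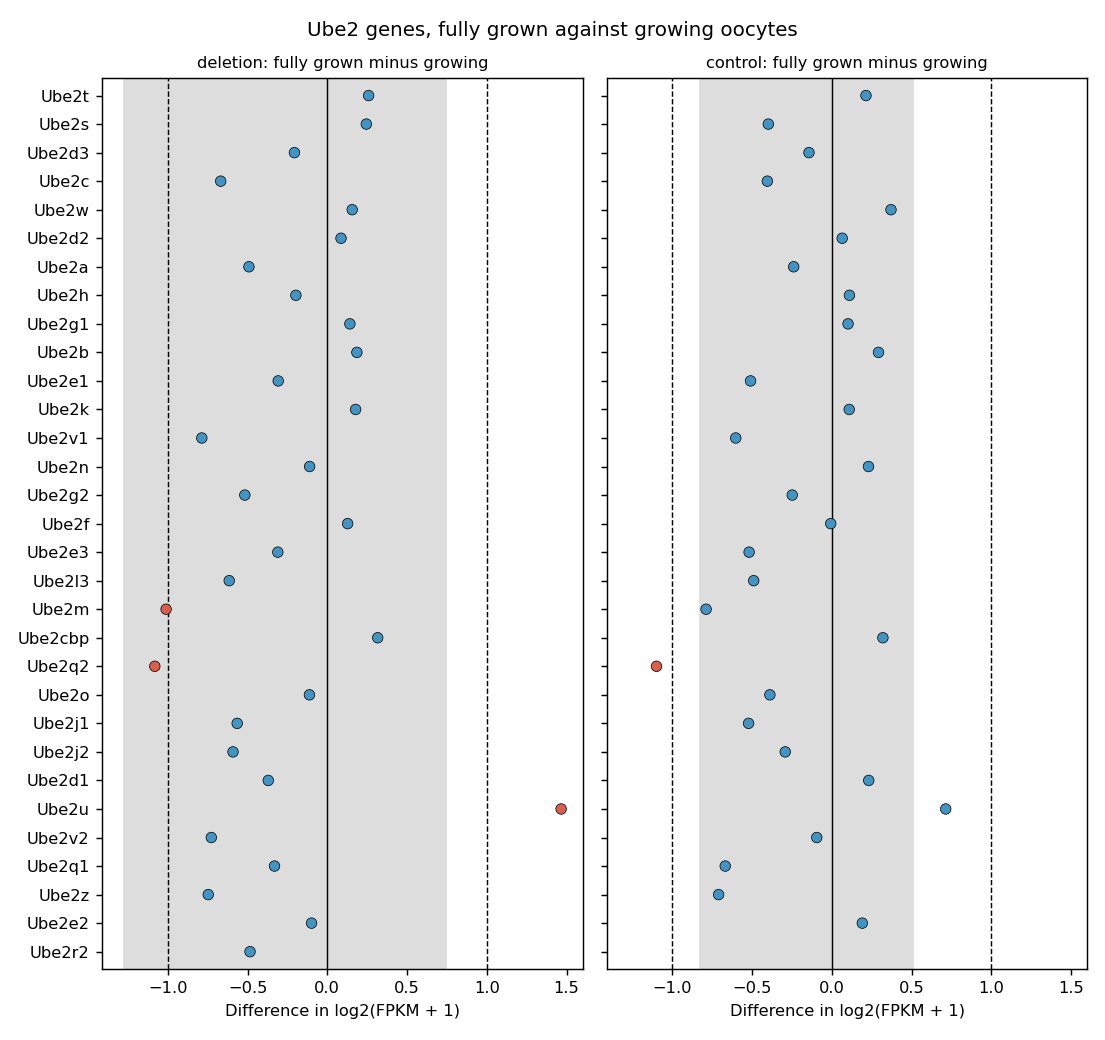
Difference in log2(FPKM + 1) between fully grown and growing oocytes, in the deletion (left) and in controls (right), for Ube2 genes that reach 5 FPKM in 1 of the libraries compared; genes are ordered by mean level. Grey marks the range that holds 90% of all genes; Ube2q2 lies beyond -1 in both panels, and Ube2m and Ube2u lie beyond a size of 1 in the deletion alone, although the difference between genotypes was not tested.

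Among members with a mean of 5 FPKM or more, 15 of 30 had their highest value in the growing deletion library, as did 38.7% of all 7380 such genes. The lowest value lay in fully grown control oocytes for 11 of 30 (36.7%), as it did for 32.7% of all genes. The range over the 4 libraries had a median of 0.54 in log2(FPKM + 1) for the members and 0.53 for all genes, so the family varied as much as genes in general did. Of the 34 genes above 0 in every library, 17 had a highest value of at most 1.5 times the lowest, and 10 of at least 2 times. Apart from Ube2v1, Ube2m and Ube2q2, those 10 had means under 10 FPKM.

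The rest of the pathway was read from gene lists, whose counts stand against the shares of all genes already given for each comparison. In growing deletion against control these were 2.62% higher and 2.51% lower, in fully grown deletion against control 1.08% and 1.09%, and over growth 2.7% and 8.75% in the deletion and 1.11% and 3.07% in controls. The activating enzyme of ubiquitin, Uba1, stood at 69.3 FPKM in fully grown deletion and 51.1 FPKM in fully grown control oocytes, and at 63.6 FPKM in growing deletion and 65.9 FPKM in growing control oocytes. Uba6, the other ubiquitin E1, averaged 9.85 FPKM, and Birc6, a giant protein with an E2 domain, averaged 8.93 FPKM. Of E1 genes at the minimum, 0 of 7 passed the size rule in either direction in fully grown oocytes, and in growing oocytes 1 of 8 was higher in the deletion. This was Mocs3, at 6.57 FPKM in growing deletion and 1.46 FPKM in growing control oocytes (1.62), which activates the ubiquitin-like protein Urm1. Among ubiquitin and ubiquitin-like genes, 1 of 12 was higher in growing deletion oocytes, and it was Urm1, at 5.49 FPKM in growing deletion and 2.09 FPKM in growing control oocytes (1.07, and 0.95 with the GC and length trend removed, short of the rule). In fully grown oocytes both were under 5 FPKM in deletion and control. Both genes reached the minimum in the growing deletion library alone. The rule could thus call them only higher there, and only lower over growth in the deletion. They were also lower in fully grown than in growing deletion oocytes (-2.35 for Mocs3 and -1.24 for Urm1), by a comparison that shares the growing deletion library.

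Of the E2-fold genes with other symbols, Atg10 of autophagy was lower in fully grown deletion oocytes, at 3.86 FPKM against 9.40 FPKM in fully grown control (-1.10), 1 of 7 at the minimum. With the GC and length trend removed its difference was -0.87, short of the rule. Against growing control oocytes (3.61 FPKM) the fully grown control library was higher (1.17). Both calls of Atg10 share that fully grown control library, the only library in which it reached the minimum. Of the ligases and ligase subunits that work with named E2 enzymes, 0 of 35 passed the rule in fully grown and 1 of 37 in growing oocytes. Nedd4l, a HECT ligase of membrane proteins, stood at 2.92 FPKM in growing deletion and 13.8 FPKM in growing control oocytes (-1.92), and at 13.8 FPKM in fully grown deletion and 24.6 FPKM in fully grown control oocytes, so that it was also higher in fully grown than in growing deletion oocytes (1.92). Rnf7, the RING partner of Ube2f, was lower in fully grown (29.8 FPKM) than in growing deletion oocytes (63.5 FPKM), with a difference of -1.07. In controls the difference of Rnf7 was -0.37. For deubiquitinases and related proteases, 0 of 25 passed the rule in fully grown and 0 of 27 in growing oocytes in the deletion comparisons. Over growth 1 of 27, Usp22 (-1.03), was lower in the deletion, a call lost with the GC and length trend removed (-0.97). Usp22 differed by -0.62 in controls. Of the 7 genes of CRL4, Dcaf13 was the 1 lower in each deletion comparison. Cul4a was lower in fully grown (5.53 FPKM) than in growing deletion oocytes (14.2 FPKM), with a difference of -1.22. It was lower in fully grown (4.95 FPKM) than in growing control oocytes (9.25 FPKM) as well, by -0.78, short of the rule.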

How the data were processed

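RNA of 10 oocytes per library was made into cDNA by Smart-seq2 with oligo-dT primers and into libraries with Tn5 transposase, per the labels' protocols. The authors deposited FPKM values, 1 row per symbol. Per the submitters' processing notes, mm9 was the genome build, and Cufflinks 2.2.1, Bowtie2 2.1.0, TopHat2 2.0.11 and CASAVA 1.8 were used, with no role stated. How strand and reads with several matches were handled, and which gene models, is not given in the sources used here.

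Symbols were sorted in byte order and paired with the value rows in file order, which changed the symbol of 19122 of 23235 rows. Differences were taken in log2(FPKM + 1), with a pseudocount of 1, over genes that reached 5 FPKM in 1 of the libraries compared, and called at a size of 1. With 1 library per group no comparison of a pair of groups has a test. An additive fit of stage and genotype over the 4 libraries would leave 1 residual degree of freedom and was not run. GC content and length came from the longest coding transcript in GENCODE M21 (GRCm38), and their trend was removed by a least-squares fit with cubic terms over all genes at the minimum. Coordinates of genes are mm9 as in the files, with starts counted from 1. The functions were tested on simulated data. Python 3.11.15, numpy 2.4.6 and pandas 2.3.3 were used.

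The members and lists were chosen with earlier results of these data known. Of the 35 members, 1 counts in all sums, medians and counts, but its own values are not reported here. Described in full were members past the size rule, the 10 with the highest mean, the largest differences per comparison and sets of related genes; Ube2dnl was added to its role group, and Ube2z, Ube2j1, Ube2l6, Ube2g2 and Ube2j2 were picked after their values were seen, as were Ubb, Uchl1 and Cdc34.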

Additional observations from a re-analysis of the deposited data

Results flagged for a closer look

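For 2 members the difference between deletion and control lay in opposite directions at the 2 stages and the values were at least 0.5 apart in log2(FPKM + 1). These are 6.67% of the 30 members at the minimum at both stages, against 10.9% of all 7188 such genes. With 1 library per group this was not tested. Ube2s, the chain-lengthening E2 of the anaphase-promoting complex, was above control in fully grown oocytes (0.27) and below it in growing oocytes (-0.37), 0.64 for fully grown minus growing. Ube2v2, a partner of Ube2n, stood at 4.42 FPKM in fully grown deletion and 5.23 FPKM in fully grown control oocytes (-0.20), and at 7.97 FPKM in growing deletion and 5.65 FPKM in growing control oocytes (0.43), -0.63 for fully grown minus growing. With the trend in GC content and length removed, Ube2v2 stood at 0.0018 in fully grown and 0.61 in growing oocytes, no longer in opposite directions, and Ube2s at 0.06 and -0.61.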

How the results depend on the processing

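Within a stage no paired analysis was possible, since each group is 1 library. Matching deletion and control by stage over both stages would leave 1 residual degree of freedom and was not run. Leaving out a library would empty its group. The counts of members past the size rule changed as follows. With a size of 0.5 in place of 1 they were 1 higher and 1 lower in fully grown deletion against control, 3 higher in growing deletion against control, 1 higher and 8 lower over growth in controls, and 10 lower over growth in the deletion. With a minimum of 10 FPKM, Ube2u was no longer at the minimum, which left 0 lower in growing deletion against control and 0 higher over growth in the deletion. With the GC and length trend removed, 0 were lower in growing deletion against control, where Ube2u was at -0.99, and 1 was lower over growth in the deletion, where Ube2m was at -0.43. With rescaling by the median ratio it was also 1, with Ube2m at -0.99. The other counts of members were unchanged under these settings, a pseudocount of 0.1, a minimum of 1 FPKM, no minimum and the deposited pairing. The members' median difference ran from -0.06 to 0.05 in fully grown deletion against control, so its sign depends on the setting, and from 0.06 to 0.16 in growing deletion against control. Over growth it ran from -0.31 to -0.15 in the deletion and from -0.19 to -0.0066 in controls. The values nearest 0 outside fully grown deletion against control came with a minimum of 10 FPKM. With the deposited pairing each Ube2 gene takes the values of a gene 2 rows away, mostly another Ube2 gene, so the counts did not move while single genes did. Ube2u then stood at 0.43 in growing deletion against control and at -0.73 over growth in the deletion, the reverse of its direction after re-pairing. Depth is unknown and limits what can be said of members near 5 FPKM.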
